A study of Homo sapiens with 12 samples.

Results

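The genes described here run the G1 phase of the cell cycle: the D-type cyclins CCND2 and CCND3, the E-type cyclins CCNE1 and CCNE2, the kinases CDK4 and CDK6, the inhibitors CDKN1B (p27), CDKN1C (p57) and CDKN2C (p18), and the retinoblastoma protein gene RB1. They were chosen by symbol, 10 in all, and cyclin D1 was not among them. Of the 10, 8 had an entry among the 12365 symbols of the deposited tables: 7 in Hep3B, 2 in Huh7, and CDKN2C in both. All 7 entries in Hep3B and both in Huh7 passed the filter on low values, at least 1 scaled read in 3 libraries. CCND3 and CDK6 were not analysed here. RNA was sequenced from Hep3B and Huh7, established hepatocellular carcinoma lines grown in DMEM with fetal bovine serum. Each line was represented by 3 libraries of parental cells and 3 libraries of cells made resistant to lenvatinib, a drug taken by mouth that blocks VEGF receptors, FGF receptors and other receptor tyrosine kinases. The comparison asks how resistant cells differ from the parental cells of the same line. All groups carry the label "DMSO or lenvatinib" for treatment, which does not tell whether the cells were harvested in drug, and nothing in the labels says whether a resistant line is a clone or a pool. The labels do not call the replicates separate cultures, so p-values measure only how far these samples spread, and that spread may be technical.

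Growth signals raise D-type cyclins, which bind CDK4 or CDK6 and start the phosphorylation of the RB protein. Cyclin E with CDK2 completes it, and the E2F factors that RB held back then switch on the genes of DNA replication. INK4 inhibitors such as p18 bind CDK4 and CDK6, whereas p27 and p57 bind complexes of cyclin and kinase. Adult hepatocytes rest outside the cycle, and liver tumours commonly bypass this control. Hep3B is widely described as lacking functional RB and p53 proteins.

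CDK4 was the member with the clearest fall in Hep3B, and CDKN2C was the one member measured in both lines, so their promoters are shown. Each sequence is the 250 bases before a transcription start, from RefSeq on GRCh38.p14, read 5′ to 3′ on the gene's strand. Capitals mark the E-box CACGTG, the letters that MYC and related factors bind, which read the same on both strands. CDK4 lies on the minus strand at chr12:57752311-57752560, and 2 of the 3 CDKN2C windows, those with an E-box, are shown on the plus strand, upstream at chr1:50960495-50960744 and downstream at chr1:50969995-50970244. The window between them, chr1:50968456-50968705, held no E-box and is not shown.
CDK4: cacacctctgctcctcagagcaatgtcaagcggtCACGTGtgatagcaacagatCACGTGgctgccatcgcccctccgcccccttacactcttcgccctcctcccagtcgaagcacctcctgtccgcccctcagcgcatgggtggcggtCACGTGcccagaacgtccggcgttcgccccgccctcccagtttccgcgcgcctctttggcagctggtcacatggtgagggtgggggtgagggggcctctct
CDKN2C upstream start: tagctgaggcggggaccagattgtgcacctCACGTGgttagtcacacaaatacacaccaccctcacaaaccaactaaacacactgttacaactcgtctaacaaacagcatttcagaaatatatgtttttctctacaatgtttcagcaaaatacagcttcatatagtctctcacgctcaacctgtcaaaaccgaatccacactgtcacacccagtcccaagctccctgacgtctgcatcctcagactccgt
CDKN2C downstream start: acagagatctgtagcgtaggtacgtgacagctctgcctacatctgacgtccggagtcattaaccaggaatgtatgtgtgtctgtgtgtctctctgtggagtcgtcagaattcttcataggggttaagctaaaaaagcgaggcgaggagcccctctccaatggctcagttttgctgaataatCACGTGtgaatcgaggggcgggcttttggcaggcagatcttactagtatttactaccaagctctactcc
The CDK4 window held 3 E-boxes, with first bases 216, 196 and 101 bases before the start. The upstream CDKN2C window held 1, at 220 bases before its start, and the downstream window held 1, at 69 bases. An E-box occurred in 6.34% of the 35116 RefSeq windows of this length, and 3 or more in 28 of them. In all, 7 members had 12 windows, of which these 3 held an E-box. The only RB1 window was chr13:48476200-48476449, with 36.8% G and C, and whether it lies at the main start of RB1 was not examined. Starts without a window were not searched. None of the 12 held the E2F letters TTTCGCGC, TTTGGCGC, TTTCCCGC or TTTGCCGC (on either strand, 2.79% of all windows), the cell cycle element TTTGAA or TTCGAA (14.3%), or the forkhead motif TGTTTAC (2.98%). These are matches of letters in a short window, not binding.

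Levels are in scaled reads, meaning reads divided by the size factor of the library, and differences are log2 fold changes of resistant over parental cells on the scale log2(scaled reads + 1). The tables differ in kind. The Hep3B table counted 1 RefSeq transcript per entry, so genes with several transcripts may be understated, and it listed genes whether or not they differed. The Huh7 table counted whole genes and listed only genes whose adjusted p in the authors' deposited table was 0.0499 or less, so a call there was fixed by the listing. Recovered reads ran from 6184929 to 7475184 per library in Hep3B and from 11480608 to 14174202 in Huh7. Hepatocyte and hepatoma markers were abundant in both lines. In Hep3B 6 of 9 were measured, with a sum of 368134 to 375461 scaled reads in parental and 174898 to 179438 in resistant libraries. In Huh7 7 of 9 were measured, with 451441 to 498783 in parental and 557292 to 580640 in resistant libraries. The largest part of that sum was AFP (means of 239517 and 318702). Of these 7, 5 were higher and 2, FGB and SERPINA1, lower (log2 fold changes -0.80 and -0.12). Sums of the other markers moved too. Fibroblast markers in Hep3B (4 of 6) went from 616–693 to 2224–2501, a sum carried by COL1A1 (from 24.9 to 1937): 2 were called higher and 2, LUM and PDGFRB, lower (log2 fold changes -2.38 and -2.10). In Huh7 (3 of 6) they went from 4161–4350 to 884–888, all 3 lower. Endothelial markers in Hep3B (2 of 5) went from 28.5–46.6 to 81.4–82.6, with 1 called higher. In Huh7 (3 of 5) they went from 133–171 to 236–255, a sum carried by PECAM1, while VWF (-1.62) and ESAM (-1.97) were lower. Leukocyte markers in Hep3B (2 of 5) went from 438–520 to 108–121 and in Huh7 (2 of 5) from 6456–6674 to 5280–5460, sums carried by LYZ, with 1 marker higher and 1 lower in each line. Each library was of 1 established line, so these sums are not read as amounts of other cell types. The part of these shifts in the results was not tested. In bulk RNA fewer cells expressing a gene and less RNA per cell cannot be told apart.

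In resistant Hep3B cells CDK4, the kinase that D-type cyclins activate, fell to 71.8% of its parental level, and no other member passed the test. CDK4 (NM_000075, chromosome 12) held 4655, 4676 and 5000.5 scaled reads in the parental libraries and 3403, 3161 and 3725 in the resistant ones. Every resistant library was below every parental one. The means were 4777 ± 194 and 3429.9 ± 283 (SD, n = 3 each), a log2 fold change of -0.48 ± 0.06 (SE; 95% interval -0.60 to -0.36) with a limma adjusted p of 5.29e-07. CDK4 was 1 of 7 members called, against 49.5% of the 8717 entries tested in Hep3B (21.9% called lower and 27.6% higher). Its change was larger than replicate spread but ordinary in size for this table, with 16.97% of entries lower in log2 fold change. The authors' deposited table gives -0.54 with an adjusted p of 6.15e-15, and calls CDK4 alone among the members and 42.9% of all entries. The gene TSPAN31, a tetraspanin, overlaps CDK4, and how strand was treated in counting is not given in the sources used here, so reads of the overlap cannot be told apart. TSPAN31 held 233, 199.6 and 219 scaled reads in parental and 132, 140.5 and 145 in resistant libraries, and its log2 fold change was -0.63 ± 0.12 (limma adjusted p = 0.000194). Its means were 217 ± 16.7 and 139 ± 6.55, a small level beside that of CDK4.

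**Figure D1:**
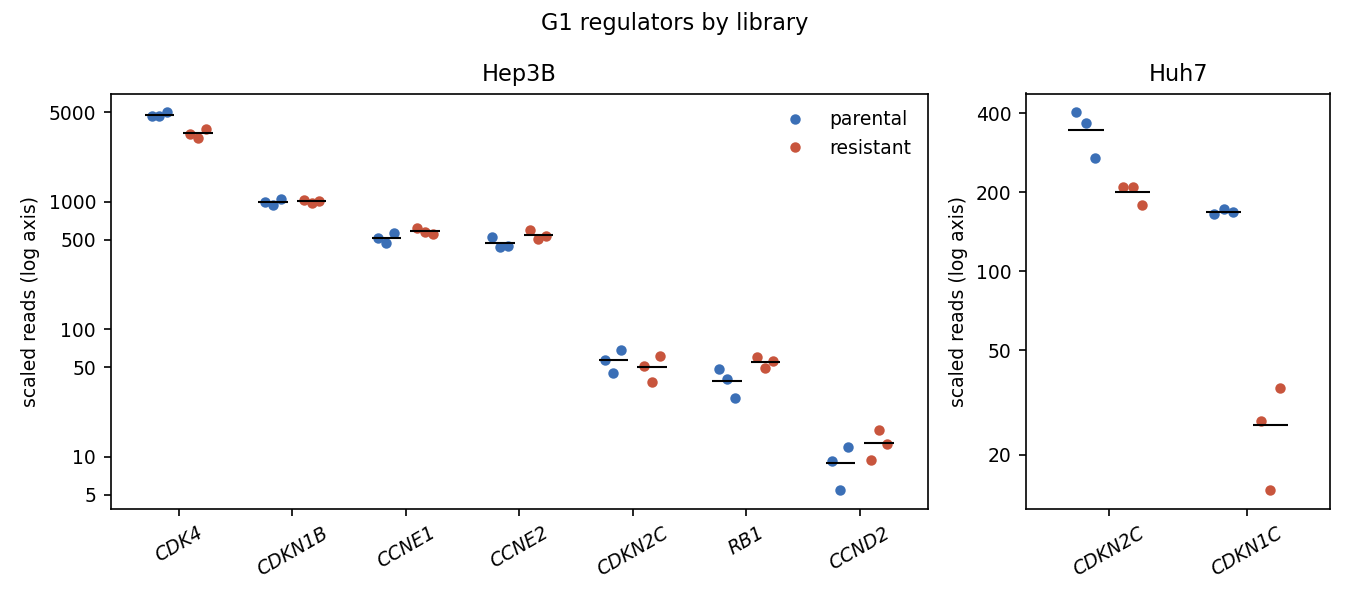
Scaled reads of each measured member in each library of Hep3B and Huh7, on a log axis, with parental and resistant groups side by side, individual libraries as points and group means as lines. The resistant libraries lie below all parental ones for CDK4 in Hep3B (3161 to 3725 against 4655 to 5000.5) and for CDKN1C (14.7 to 36.1 against 165.5 to 172) and CDKN2C (179 to 209.98 against 269.95 to 403) in Huh7.

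The E-type cyclins, the partners of CDK2, had higher means in resistant Hep3B, but neither passed, and under median centring the log2 fold changes shrank to 0.013 for CCNE1 and 0.053 for CCNE2 (limma adjusted p = 0.915 and 0.657). CCNE1 (NM_001238, chromosome 19) held 519, 475 and 567 scaled reads in parental and 622, 574 and 560 in resistant libraries. The groups overlapped through parental library 3. The log2 fold change was 0.17 ± 0.08 (95% interval -0.0035 to 0.35; limma adjusted p = 0.0972). CCNE2 (NM_057749, chromosome 8) held 526, 443 and 452 in parental and 598, 506 and 541 in resistant libraries. Here parental library 1 lay within the resistant range. The log2 fold change was 0.21 ± 0.09 (95% interval 0.02 to 0.40; limma adjusted p = 0.0568). NDUFAF6, a mitochondrial assembly factor gene that overlaps CCNE2, had a log2 fold change of -0.07 ± 0.10 in Hep3B. CCND2 (NM_001759, chromosome 12), a partner of CDK4 and CDK6, was near the lower end of the table. It held 9.21, 5.48 and 11.9 scaled reads in parental and 9.39, 16.3 and 12.6 in resistant libraries, from 27 and 38 reads in all. The groups overlapped, and with so few reads a log2 fold change of 0.50 ± 0.43 (95% interval -0.38 to 1.39; limma adjusted p = 0.346) leaves a wide range.

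The inhibitors measured in Hep3B did not pass the test either. CDKN1B (NM_004064, chromosome 12), p27, held 982, 939 and 1038 scaled reads in parental and 1025, 969 and 1012 in resistant libraries. The ranges lay on top of each other, and the log2 fold change was 0.02 ± 0.06 (limma adjusted p = 0.787), with a 95% interval of -0.11 to 0.16. CDKN2C (NM_001262, chromosome 1), p18, held 57.1, 45.0 and 68.4 in parental and 51.6, 38.7 and 61.7 in resistant libraries. These groups overlapped broadly, with a log2 fold change of -0.17 ± 0.23 (95% interval -0.64 to 0.31; limma adjusted p = 0.579).

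RB1 (NM_000321, chromosome 13), which encodes the protein that CDK4 phosphorylates, held 48.8, 40.6 and 28.7 scaled reads in parental and 60.1, 49.9 and 56.5 in resistant Hep3B libraries. The groups did not overlap, but by a narrow gap, from 48.8 to 49.9. The log2 fold change was 0.51 ± 0.23 (95% interval 0.03 to 1.0), and the limma adjusted p of 0.0753 missed the threshold of 0.05. RB1 and CDK4 were 2 of 7 members whose groups did not overlap, against 56.3% of all entries tested. With quantile normalization its log2 fold change was 0.24 (limma adjusted p = 0.412). Without parental library 1, RB1 (log2 fold change 0.68, limma adjusted p = 0.0356) and CCNE2 (0.29, limma adjusted p = 0.0220) passed. Likewise CCNE1 passed without parental library 3 (0.23, limma adjusted p = 0.0424), and CCNE2 without resistant library 2 (0.27, limma adjusted p = 0.0267).

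Per kilobase of transcript, the order of parental levels in Hep3B was CDK4 at 2301 ± 93.3 scaled reads per kilobase, CDKN1B at 371 ± 18.8, CCNE1 at 255 ± 22.5, CCNE2 at 174 ± 16.7, CDKN2C at 27.2 ± 5.61, RB1 at 8.21 ± 2.10 and CCND2 at 1.37 ± 0.496 (SD, n = 3). Each neighbouring pair in this order was separated by more than its SDs. CDK4 stayed the highest in resistant cells, at 1652 ± 136 per kilobase. The levels of RB1, CCNE1 and CDKN2C come from 1 of 5, 8 and 3 RefSeq transcripts and may be understated. Over the 7 members the median log2 fold change was 0.17 and the median absolute change 0.21, against 0.07 and 0.40 over all entries. None of the 7 changed by 1 or more on the log2 scale, against 17.5% of entries.

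**Figure D2:**
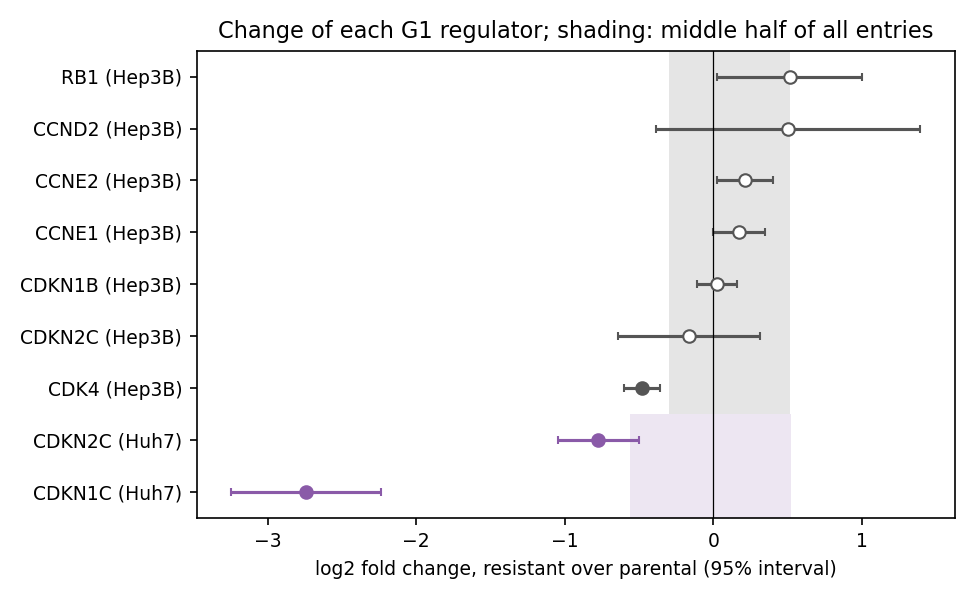
Log2 fold change of resistant over parental cells for each member in each line, with 95% intervals from limma, filled symbols for an adjusted p under 0.05, open symbols otherwise, and shading from the lower to the upper quartile of all entries of the line (-0.30 to 0.52 in Hep3B, -0.56 to 0.52 in Huh7). CDK4 is the filled symbol among the Hep3B members at -0.48, and in Huh7 CDKN1C (-2.74) and CDKN2C (-0.78) both lie below 0.

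In Huh7, both listed members are inhibitors, and both were lower in resistant cells. CDKN1C (ENSG00000129757, chromosome 11), p57, held 165.5, 172 and 167 scaled reads in parental and 26.98, 14.7 and 36.1 in resistant libraries. The parental libraries were within a few reads of each other, and the resistant ones were all far lower. The means were 168 ± 3.36 and 25.9 ± 10.7 (SD, n = 3 each), from 532 and 75 reads in all, so that resistant cells kept 15.4% of the parental level. The log2 fold change was -2.74 ± 0.24 (95% interval -3.24 to -2.23; limma adjusted p = 5.83e-09), and 2.42% of listed genes were lower. Both members were called, but so were 100% of the 7531 entries tested, and the groups did not overlap for 98.6% of them, so nothing is read from the count. Of all entries called, 48.0% were higher. The authors' deposited table gives -2.70 for CDKN1C.

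CDKN2C (ENSG00000123080, chromosome 1) held 403, 366 and 269.95 scaled reads in parental and 209.6, 209.98 and 179 in resistant Huh7 libraries. Parental library 3 was well below the others of its group, yet above every resistant one. The means were 346 ± 68.6 and 199.6 ± 17.7 (SD, n = 3 each), from 1084 and 576 reads, with the resistant mean at 57.6% of the parental. The log2 fold change was -0.78 ± 0.13 (95% interval -1.05 to -0.50; limma adjusted p = 2.24e-05), and 17.5% of listed genes were lower. Per kilobase of merged exons, CDKN2C went from 104 ± 20.7 to 60.2 ± 5.32 and CDKN1C from 67.9 ± 1.36 to 10.5 ± 4.32, so CDKN2C was the higher of the pair in both groups, with means further apart than their SDs.

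CDKN2C was the only member measured in both lines, by unlike counts: 1 of 3 RefSeq transcripts in Hep3B and the whole gene in Huh7. CDKN2C was listed in Huh7 because it differed there, which favours a larger change in that line. Its log2 fold change was lower in Huh7 than in Hep3B, by a difference of -0.61 ± 0.26 (95% interval -1.14 to -0.08; adjusted p = 0.0390 from both limma fits), where 67.6% of the 3885 symbols in both tables passed. This call was lost without any one of 7 libraries, with the difference ranging from -0.79 to -0.45 and the adjusted p from 0.00697 to 0.163 as each library was left out in turn. It was also lost with DESeq2 (-0.48, adjusted p = 0.183), edgeR (-0.54, adjusted p = 0.0829), and median centring (-0.39, adjusted p = 0.184). Over the 12 libraries, with each line centred on its own mean, the symbols whose log2 levels were most like CDKN2C were PABPN1 (Pearson r 0.968), a nuclear poly(A)-binding protein gene, TMED9 (0.957), of early secretory traffic, and LYPLA2 (0.954), a thioesterase gene. These were 3 of 34 symbols, out of 3884, with r of 0.9 or more, and the points share libraries and depth. Their log2 fold changes in Huh7 and Hep3B, which the choice by likeness in part fixes, were -0.62 and -0.09 for PABPN1, -0.38 and -0.11 for TMED9, and -0.33 and 0.02 for LYPLA2.

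The genes beside CDKN1C were looked at because it is imprinted: in human tissues it is expressed mainly from the maternal copy. The antisense transcript KCNQ1OT1 is made from the paternal copy and silences the genes around it on that copy. This set of neighbours was chosen after values were seen. KCNQ1OT1, the next listed gene on one side, had a mean of 79.7 ± 0.623 scaled reads in parental and 136 ± 22.5 in resistant Huh7, a log2 fold change of 0.75 ± 0.15 (limma adjusted p = 0.000193). PHLDA2, the next listed gene on the other side and also maternally expressed, fell from 187 ± 14.4 to 64.4 ± 10.8, a log2 fold change of -1.53 ± 0.15 (limma adjusted p = 3.74e-08). IGF2, a growth factor gene 3 listed genes away that is paternally expressed in many tissues, had a log2 fold change of -0.39 ± 0.09. The genes 2 listed genes away, TSSC4 and NAP1L4, had -0.63 ± 0.10 and 0.14 ± 0.05. The counts do not separate the maternal from the paternal copy, and the part of KCNQ1OT1 in these values was not tested. Of the 20 listed genes nearest to CDKN1C, 11 were higher and 9 lower, with a median log2 fold change of 0.18. Neighbours of CDKN2C in Huh7 were mostly lower, at 14 of 20, as were 73.8% of the 751 listed genes of chromosome 1. In Hep3B, 46.0% of the 443 placed entries of chromosome 12 were called lower and 11.3% higher, with a median log2 fold change of -0.35. CDK4, CDKN1B and CCND2 lie on that chromosome. Of their 20 nearest entries each, 5, 6 and 9 were lower and 5, 3 and 0 higher, with medians of 0.01, -0.08 and -0.36. Copy number was not measured here, and its part in these values was not tested.

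**Figure D3:**
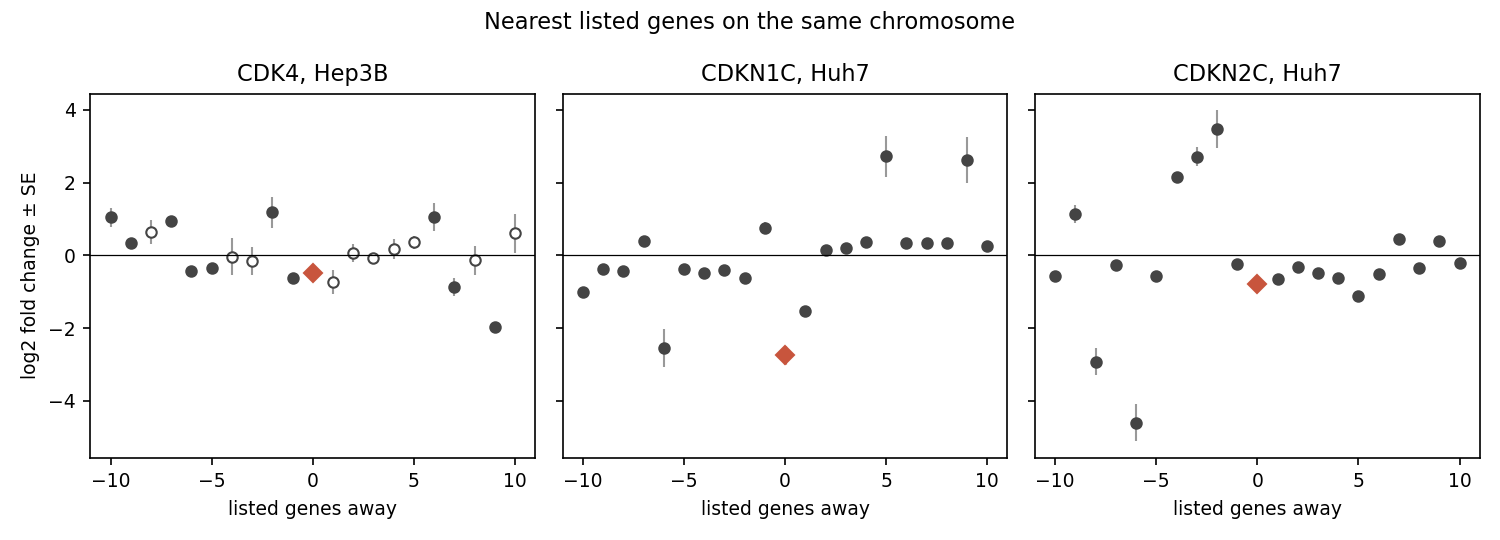
Log2 fold change ± SE of the 10 listed genes on either side of CDK4 in Hep3B and of CDKN1C and CDKN2C in Huh7, by place in RefSeq order counted in listed genes from the member (diamond), with circles filled for an adjusted p under 0.05 and open otherwise. Next to CDKN1C in Huh7 (-2.74), KCNQ1OT1 (0.75) and PHLDA2 (-1.53) lie on opposite sides of 0.

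The other genes of the pathway were described by lists of cyclins and kinases, E2F factors and their partners, E2F targets, ubiquitin ligase parts and growth signals. Among E2F factors, pocket proteins and DREAM subunits, 7 of 11 measured in Hep3B rose and none fell, with a median log2 fold change of 0.46, against 27.6% higher, 21.9% lower and a median of 0.07 over all entries tested. E2F1, an activator of S phase genes, rose from 685 to 1285 scaled reads (0.91 ± 0.07, limma adjusted p = 3.19e-10). E2F7, a repressor of E2F targets, rose by 0.25 ± 0.08 on the log2 scale (limma adjusted p = 0.00909). The E2F7 call was lost without parental library 3 or resistant library 2 (limma adjusted p = 0.0528 and 0.0573) and under median centring (0.093, limma adjusted p = 0.350). It was also lost with DESeq2 (0.19, adjusted p = 0.0770), with limma without trend (adjusted p = 0.0666) and by the authors' deposited call (0.19, adjusted p = 0.0801). E2F4, a repressor with the pocket proteins, had 0.01 ± 0.07, and TFDP1, the dimer partner of E2F, had -0.59 ± 0.35, neither of which passed. TFDP1 was an entry of few reads, with means of 19.4 scaled reads in parental and 12.7 in resistant Hep3B. With quantile normalization TFDP1 was called lower (-0.88, limma adjusted p = 0.0433). The others that rose, named after their values were seen, were E2F2 (1.31 ± 0.12), E2F3 (0.73 ± 0.21), the pocket proteins RBL1 (0.48 ± 0.12) and RBL2 (0.46 ± 0.10), and LIN37 (0.71 ± 0.16). In Huh7, where 100% of entries were called and 48.0% were higher, 2 of 8 listed genes were higher and 6 lower. Their median was -0.23, near the -0.19 of all entries, and with DESeq2 3 were called lower. E2F1 was lower there (-0.27 ± 0.06), as were E2F4 (-0.37 ± 0.07) and TFDP1 (-0.37 ± 0.06), while E2F7 was higher (0.59 ± 0.10).

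Of the replication genes that E2F controls, 5 of 10 measured in Hep3B rose and 1 fell, near the 49.5% of all entries called, and the median of 0.07 was that of all entries. MCM6, a subunit of the replicative helicase, rose by only 0.12 ± 0.05 (limma adjusted p = 0.0419), a call lost when any 1 library was left out and reversed in direction under median centring (-0.043). MCM5 (-0.08 ± 0.05), MCM7 (-0.06 ± 0.47, from an entry of few reads) and the thymidine kinase gene TK1 (0.01 ± 0.05) did not pass in the main fit. TK1 turned lower under median centring (-0.15). MCM5 was called lower with edgeR (-0.13, adjusted p = 0.0338), DESeq2 (-0.14, adjusted p = 0.0353) and median centring (-0.23, limma adjusted p = 0.000419). Median centring moved the median of all Hep3B entries by -0.16. It left 1 of these genes higher in place of 5, and 3 lower in place of 1. With any 1 library left out, 3 were higher and 1 lower. With edgeR or DESeq2, 2 were higher and 2 lower. In Huh7, where every entry was called and 48.0% were higher, 8 of 11 were higher and 3 lower (median 0.26, against -0.19 over all entries). MCM6 there rose from 2849 to 5590 scaled reads (0.97 ± 0.05, limma adjusted p = 1.28e-12) and MCM7 by 0.16 ± 0.05, while MCM5 (-0.24 ± 0.06) and TK1 (-0.49 ± 0.07) were lower.

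**Figure D4:**
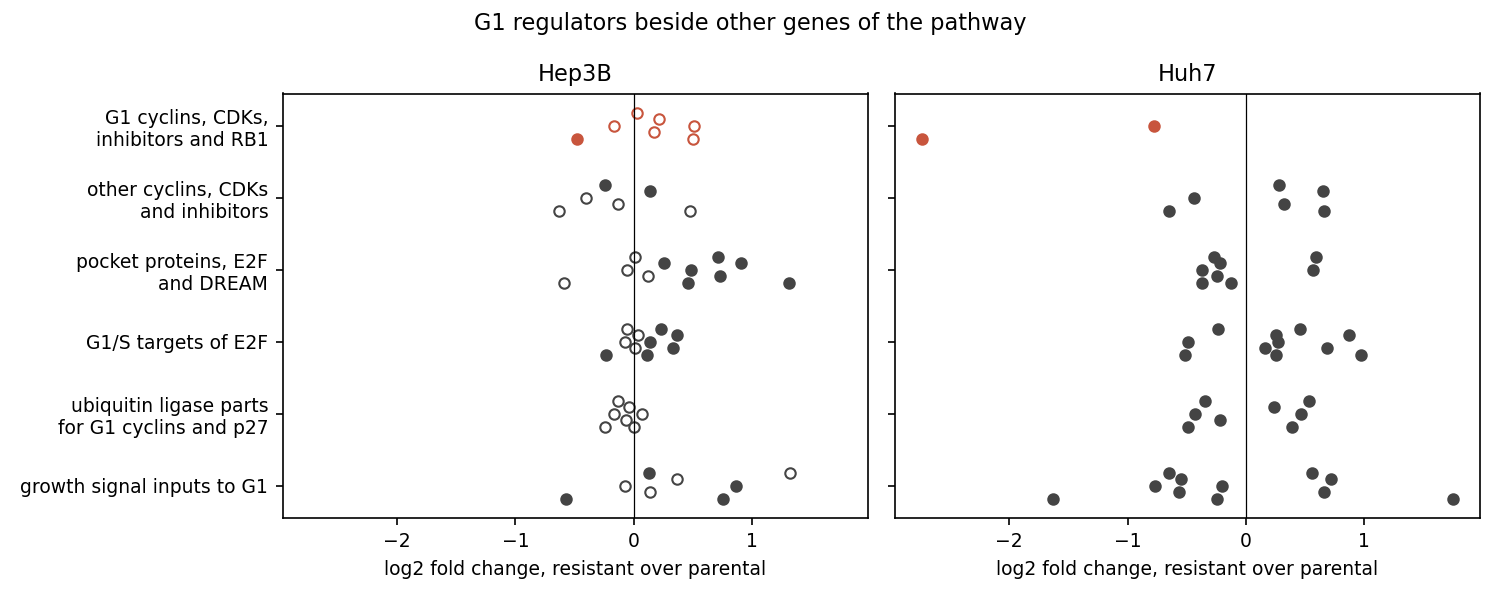
Log2 fold change of each measured gene in Hep3B and Huh7, 1 row per list with the members on top in red, and with filled symbols for a limma adjusted p under 0.05 and open symbols otherwise. In Hep3B 7 of 11 E2F, pocket protein and DREAM genes are filled above 0, while all 7 ubiquitin ligase parts are open.

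Among the other cyclins, kinases and inhibitors, 1 of 6 measured in Hep3B rose and 1 fell, against 49.5% of all entries called, with a median of -0.19. With edgeR, with DESeq2 and by the authors' deposited call, 0 were higher and 2 lower. The mitotic cyclin gene CCNB1 had 2349 and 2585 scaled reads (0.14 ± 0.05, limma adjusted p = 0.0380). That call was lost without parental library 1 or 2 (limma adjusted p = 0.0935 and 0.0914) and without resistant library 1 or 3 (0.118 and 0.153 by limma), and the direction turned under median centring (-0.022). CCNB1 was not called with edgeR (adjusted p = 0.204), DESeq2 (adjusted p = 0.332) or limma without trend (adjusted p = 0.159) either. CCNA2, cyclin A of S phase, fell from 2118 to 1788 (-0.24 ± 0.07, limma adjusted p = 0.00634), a call lost with limma without trend (adjusted p = 0.110) and with quantile normalization (-0.16, limma adjusted p = 0.0509). In Huh7, with 100% of entries called and 48.0% higher, 4 of 6 were higher and 2 lower. CCNC, a cyclin of the Mediator kinase module, was higher (1787 and 2802 scaled reads, 0.65 ± 0.06), as was CCNA2 (0.32 ± 0.05). The inhibitors in this list, named after their values were seen, did not move one way: CDKN1A (p21) was higher at 0.66 ± 0.10, and the INK4 genes CDKN2B (p15) at -0.44 ± 0.06 and CDKN2D (p19) at -0.65 ± 0.20 were lower.

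Of 7 ubiquitin ligase parts that act on G1 cyclins and p27, none passed in Hep3B with limma, against 49.5% of all entries, 1 had an unadjusted p under 0.05, and edgeR and DESeq2 each called 1 lower. Under median centring limma called 3 lower, CUL1 (-0.20, adjusted p = 0.0139), RBX1 (-0.32, adjusted p = 0.00134) and CDC34 (-0.15, adjusted p = 0.0387), and it called RBX1 without parental library 2 (adjusted p = 0.0107). The scaffold CUL1 (-0.04 ± 0.06), the ring protein RBX1 (-0.16 ± 0.08), the ubiquitin-conjugating enzyme CDC34 (0.00 ± 0.06) and the receptor FBXO31 (-0.13 ± 0.36) did not pass with the main scaling. In Huh7, where every entry was called and 48.0% were higher, 4 of 8 were higher and 4 lower. The named genes were CUL1 at 0.24 ± 0.06, RBX1 at -0.34 ± 0.06, CDC34 at -0.49 ± 0.07 and FBXO31 at -0.22 ± 0.08. FBXO31 was called with limma, but not without parental library 1 or resistant library 3 (limma adjusted p = 0.0724 and 0.0586).

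Growth signal inputs moved in both directions. MYC, the transcription factor that binds E-boxes, fell in resistant Hep3B from 3344 to 2254 scaled reads (-0.57 ± 0.05, limma adjusted p = 4.18e-09) and rose in resistant Huh7 from 1901 to 2795 (0.55 ± 0.06, limma adjusted p = 8.71e-08). Of 8 genes in Hep3B, 3 rose and 1 fell, about the 49.5% of all entries called. Of 11 in Huh7, where 100% of entries were called and 48.0% were higher, 4 were higher and 7 lower. SMAD3, a transducer of TGF-beta, rose in Hep3B (0.86 ± 0.18, from 1 of 11 RefSeq transcripts) and was lower in Huh7 (-0.65 ± 0.06). SMAD4, its shared partner, did not pass in Hep3B (0.13 ± 0.06, limma adjusted p = 0.0658) and was higher in Huh7 (0.72 ± 0.06). FOXO1, a factor that activates the gene for p27, did not pass in Hep3B (-0.07 ± 0.09) and was lower in Huh7 (-0.56 ± 0.09).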

How the data were processed

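RNA-seq was analysed from 12 libraries in 4 groups of 3. Judged from its numbers, each deposited Hep3B signal value is a RefSeq transcript's read count plus 0.375, scaled by a library factor, under a square root and multiplied by 2. Each deposited Huh7 signal value is the read count of an Ensembl gene, scaled by a library factor. The authors' log2 fold changes and adjusted p-values stand beside them, per the file headers. Mapping was to GRCh37, per the submitters' processing notes, and no aligner or counter is named (not given in the sources used here). Undoing the scaling gave whole reads (within 0.05) for 100% of values. One Hep3B entry without a name, 0.000119% of reads, was left out.

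Log2(scaled reads + 1) was tested with limma 3.58.1 in R 4.3.3 (trend and robust, two-sided), with Benjamini-Hochberg adjustment over all entries with at least 1 scaled read in 3 libraries and a threshold of 0.05. Lines were compared by subtracting the Hep3B from the Huh7 fold change and dividing by the joint SE. edgeR 4.0.16 and DESeq2 1.42.0 on the recovered reads were alternatives, with other pseudocounts, filters and scalings, a replicate block and each library left out. Tables were normalized separately, and levels were not compared across them. Named genes were all members, up to 4 genes of highest level per list among those in both tables (where fewer than 2 were in both, the 2 highest in each table), and the 3 symbols most like CDKN2C. Members and lists were chosen with earlier results of these data known. Depth limits the entries with few reads, such as CCND2.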

Additional observations from a re-analysis of the deposited data

Results flagged for a closer look

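The following log2 fold changes differed between the lines by the test of the difference itself, given as Huh7 minus Hep3B with the adjusted p from both limma fits. Among the members, CDKN2C differed by -0.61 (adjusted p = 0.0390). Among the pathway genes, MYC differed by 1.12, MCM6 by 0.86, SMAD4 by 0.58, CCNA2 by 0.56, E2F7 by 0.34 and CUL1 by 0.28, each higher in Huh7. The differences of SMAD3 (-1.51), E2F1 (-1.18), TK1 (-0.50), CDC34 (-0.50), FOXO1 (-0.49), E2F4 (-0.39) and MCM5 (-0.16) were negative. Among these, E2F1, MYC, SMAD3 and CCNA2 were called in opposite directions in the lines, CCNA2 in Hep3B not under every alternative (lost with limma without trend and quantile normalization). The call for MCM5 (limma adjusted p = 0.0493) was lost with edgeR and DESeq2 and without any one of 9 libraries. Under median centring the differences of E2F4 (-0.17, adjusted p = 0.123) and FOXO1 (-0.27, adjusted p = 0.0584) lost their calls, and that of E2F7 did without Huh7 parental library 2 or resistant library 2 (adjusted p = 0.0591 and 0.0601 by limma). All 14 rest on the Huh7 listing, which holds genes with a difference there, and 67.6% of the symbols in both tables passed the same test. The counts were also unlike, with 1 RefSeq transcript per entry in Hep3B and the whole gene in Huh7. For SMAD3 the Hep3B entry was 1 of 11 RefSeq transcripts, with means of 131 ± 18.8 and 245 ± 72.6 scaled reads. E2F1 and CCNA2 have 1 RefSeq transcript each, and MYC has 2.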

How the results depend on the processing

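In all 17 alternatives for Hep3B, CDK4 stayed lower (log2 fold change -0.64 to -0.40, adjusted p at most 0.00845), while CDKN1B and CCND2 passed in none. In all 17 for Huh7, CDKN1C (-3.01 to -2.39, at most 0.000467) and CDKN2C (-0.94 to -0.66, at most 0.00483) stayed lower. The Huh7 calls were largely fixed by the listing, with 7111 to 7533 entries called across the alternatives, so nothing is read from their survival. Same-numbered deviations correlated weakly, at 0.03, 0.15 and 0.06 in Hep3B and at 0.00, 0.01 and 0.07 in Huh7. Those of different numbers ran from -0.11 to 0.055 in Hep3B and from -0.065 to 0.051 in Huh7. Whether replicate numbers pair the samples was not settled by these values. With the replicate number as a block, limma called 4 members in Hep3B in place of 1, adding CCNE1 (0.17, adjusted p = 0.0357), CCNE2 (0.21, adjusted p = 0.0110) and RB1 (0.51, adjusted p = 0.0495), and of the named pathway genes it added RBX1 (adjusted p = 0.0120) and SMAD4 (adjusted p = 0.0118) in Hep3B. The blocked fit also called 4881 of all Hep3B entries in place of 4317. It gave CDK4 a limma adjusted p of 1.91e-40 in place of 5.29e-07. Its added calls are not read as gained by pairing. With 1 library left out, 1 to 3 members were called in Hep3B, and the log2 fold changes ran from 0.11 to 0.23 for CCNE1, 0.15 to 0.29 for CCNE2 and 0.31 to 0.68 for RB1. The difference of CDKN2C between lines, -0.79 to -0.45 with 1 library left out, lost its call with DESeq2 (-0.48), edgeR (-0.54), limma without trend (-0.61, adjusted p = 0.0747), median centring (-0.39) and quantile normalization (-0.34, adjusted p = 0.256). The cause was not tested. Under median centring, 39.2% of Hep3B calls were higher, against 55.7% with the main scaling, and 5 results reversed: CCNB1 (-0.022), MCM6 (-0.043), TK1 (-0.15) and CDC34 (-0.15) in Hep3B, and the difference of MCM5 between lines (0.060). All entries called numbered 3674 to 4881 in Hep3B and 7111 to 7533 in Huh7. Depth limits CCND2 (27 and 38 reads) and CDKN1C in resistant Huh7 (75 reads).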

Other observations

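Some further pathway genes of Huh7 are named here after their values were seen. The forkhead gene FOXO4 went from 407 ± 41.6 to 131 ± 6.47 scaled reads (log2 fold change -1.63 ± 0.11, limma adjusted p = 1.38e-10), while FOXO3 went from 862 ± 22.5 to 1365 ± 37.1 (0.66 ± 0.06, limma adjusted p = 1.22e-08). KLF4, a zinc finger factor known to activate CDKN1A, went from 114 ± 17.4 to 382 ± 18.7 (1.75 ± 0.12, limma adjusted p = 1.95e-10). CKS1B, the cofactor by which SKP2 recognises p27, went from 3371 to 2502 (-0.43 ± 0.06, limma adjusted p = 2.00e-06). Each of these entries was listed because it differed in Huh7.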
